A study of Mus musculus with 6 samples.

Results

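Interferon-stimulated antiviral genes were followed in HEI-OC1, an immortalised line from the organ of Corti of a mouse, in 3 libraries labelled Nrf2 KO and 3 libraries of the unedited line (control). The genes were taken by symbol from a list of 40 interferon signalling factors and interferon-stimulated effectors that leaves out antigen presentation. The count table held 39 of the 40 among its 30438 gene symbols (Xaf1 was the exception), and 34 had enough counts to test. Nfe2l2 encodes NRF2, a transcription factor that drives antioxidant and detoxification genes. Libraries were made from poly(A)-selected RNA of both lines, grown alike in DMEM with 10% serum at 33 °C in 10% CO2, and the labels record neither cisplatin nor an interferon treatment. The labels describe the knockout as a cell line of its own, without saying whether it is a single clone or how it was edited. The submitters ask what lies behind the cisplatin resistance of the knockout cells, and the comparison available is labelled Nrf2 KO against control in unstressed culture.

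Cells sense viral nucleic acid through RIG-I-like receptors and other sensors, and answer by secreting interferons. Type I interferon binds the receptor IFNAR1/IFNAR2, whose kinases JAK1 and TYK2 phosphorylate STAT proteins. STAT2 and IRF9 are parts of the ISGF3 complex, which binds interferon-stimulated response elements in the promoters of antiviral genes, while interferon gamma acts mainly on gamma-activated sites and through IRF1. Many of these genes are also transcribed at a low level without added interferon. HEI-OC1 comes from a mouse in which a temperature-sensitive SV40 large T antigen is driven by an interferon-inducible class I MHC promoter, so interferon signalling can also reach the transgene that immortalises the line. The T antigen transcript was not analysed here.

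Total counts were 29130007 to 51285343 in libraries labelled Nrf2 KO and 38636523 to 44098578 in the controls. The first principal component (51.2% of the variance) separated the groups, and the second (41.2%) separated the 2 replicate 1 libraries from the other 4. Nfe2l2, the targeted gene, stood at 396, 236 and 205 CPM (counts scaled to library size, with TMM factors) in libraries labelled Nrf2 KO, against 74.2, 126 and 96.7 CPM in the controls. It was thus higher under the knockout label (edgeR log2 fold change 1.49, SE 0.33, adjusted p = 0.0456). The transcript level alone does not show whether the protein is lost, and what the edit left of the protein was not measured. The groups are therefore called by their labels. Of the markers fixed for a cochlear stem cell, Sox2 and Pax2 had 0 counts in all 6 libraries and Prox1, Epcam and Cdh1 were at or below 0.335 CPM, while Jag1 (139 to 191 CPM in libraries labelled Nrf2 KO, 99.2 to 114 CPM in the controls) and Eya1 (18.4 to 59.3 and 25.0 to 48.6 CPM) were present. The gene symbols follow rat nomenclature, and rapidly evolving antiviral genes with close paralogs (Oas, Oasl, Mx, Gbp, Ifit, Ifi27 and Trim genes) may share or lose reads, so levels and paralog assignments of these families are uncertain.

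The promoters of interferon-stimulated genes carry short elements, shown here for called members to make the element visible. In the RefSeq promoter table of the mouse build GRCm38.p6 (250 bases before to 50 after each start site), 28 of the 40 members had an entry. The core of the interferon-stimulated response element was searched as GAAA, any 2 bases and GAAA again, on both strands, and 13 of the 28 members (46.4%) held it in at least 1 promoter, against 3.99% of 27025 genes in the table. The core of the gamma-activated site, TTCNNNGAA on both strands, was present in 10 of the 28 (35.7%), against 9.55% of all genes. The antioxidant response element core TGACNNNGC on both strands, the kind of site NRF2 binds, was present in 4 of the 28 (14.3%), against 14% of all genes. These are matches of letters and not measured binding. Among members that rose, 4 of the 8 with an entry held the response element core (Gbp2, Gbp5, Stat2 and Trim21), as did 6 of the 16 that were tested and did not pass (37.5%). In Trim21 the matches lie after the start site. The other 3 are printed as the 250 bases before the start site, 5′ to 3′ on the gene's own strand, with the response element core in capitals on whichever strand it lies. Isg15, which did not pass, is added for comparison, a choice made after its values were seen, and its capitals are 3 overlapping matches. Gbp2 is chr3:142620413-142620662 on the plus strand, Stat2 is chr10:128270248-128270497 on the plus strand, Gbp5 is chr3:142496684-142496933 on the plus strand and Isg15 is chr4:156200819-156201068 on the minus strand.
Gbp2: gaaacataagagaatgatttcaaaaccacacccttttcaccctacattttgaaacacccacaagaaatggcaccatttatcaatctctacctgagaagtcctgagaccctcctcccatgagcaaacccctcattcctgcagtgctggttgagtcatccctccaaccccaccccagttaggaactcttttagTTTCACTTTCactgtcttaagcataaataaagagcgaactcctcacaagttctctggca
Stat2: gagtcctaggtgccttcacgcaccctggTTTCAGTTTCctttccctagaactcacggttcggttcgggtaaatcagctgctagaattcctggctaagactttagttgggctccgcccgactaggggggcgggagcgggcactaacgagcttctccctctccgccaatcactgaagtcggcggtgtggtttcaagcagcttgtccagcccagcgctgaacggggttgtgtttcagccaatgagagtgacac
Gbp5: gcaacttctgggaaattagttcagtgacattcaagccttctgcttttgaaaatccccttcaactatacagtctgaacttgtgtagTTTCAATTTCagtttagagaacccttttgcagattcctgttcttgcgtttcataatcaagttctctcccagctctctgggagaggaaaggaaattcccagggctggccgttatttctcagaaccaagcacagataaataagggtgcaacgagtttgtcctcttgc
Isg15: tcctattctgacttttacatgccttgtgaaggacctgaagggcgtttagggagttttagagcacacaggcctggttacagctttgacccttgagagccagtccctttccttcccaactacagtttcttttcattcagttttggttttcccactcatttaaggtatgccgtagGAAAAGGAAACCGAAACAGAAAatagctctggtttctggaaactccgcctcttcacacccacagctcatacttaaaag
In Gbp2 the core lies at -59 to -50 from the start site, in Gbp5 at -165 to -156 and in Stat2 at -222 to -213, and in Isg15 the matches run from -78 to -57.

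Of the 34 tested members, 14 rose and 0 fell in libraries labelled Nrf2 KO at an adjusted p under 0.05 (edgeR's quasi-likelihood test, Benjamini-Hochberg over 14618 genes), a share of 41.2% and 0%, against 4.83% of all tested genes called higher and 3.45% called lower. The members, like the other gene lists used here, were chosen with earlier results of these data known. The shares are therefore set side by side as description, and no test was made over the list. At an unadjusted p under 0.05 the members gave 19 higher and 1 lower, beside 1959 and 1695 of all 14618 tested genes. DESeq2 called 17 members higher and 1 lower, beside 10.9% and 9.02% of all tested genes. The rises were moderate, with log2 fold changes of 0.61 (Irf1) to 2.51 (Gbp2) among the 14, and a median of 0.85 over the 34, against 0.04 over all tested genes. All 3 libraries labelled Nrf2 KO lay above all 3 controls for 18 of the 34 (52.9%, against 17.1% of all tested genes) and below them for 2, Mx1 and Mx2 (5.88%, against 17.1%). Each of the 34 had at least 12 counts in every library. Of 12 leukocyte markers, Adgre1, Tyrobp and Cd3e had 0 counts in every library, 4 were tested, 0 rose and 1 fell, and their sum was 12.6 to 24.0 CPM in libraries labelled Nrf2 KO and 17.03 to 21.8 CPM in the controls. Of 6 fibroblast markers 5 were tested and 4 rose, and their sum was 3821 to 5873 CPM in libraries labelled Nrf2 KO and 1456 to 1908 CPM in the controls. Col1a1 added most to this sum (1927 to 2918 and 841 to 1113 CPM). Lum overlapped between the groups (adjusted p = 0.678 in edgeR), and Dcn had 0 to 7 counts a library and was not tested. The part of the fibroblast marker difference in the members' values was not tested. In these bulk libraries more cells of a type and more RNA per cell cannot be told apart.

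**Figure D1:**
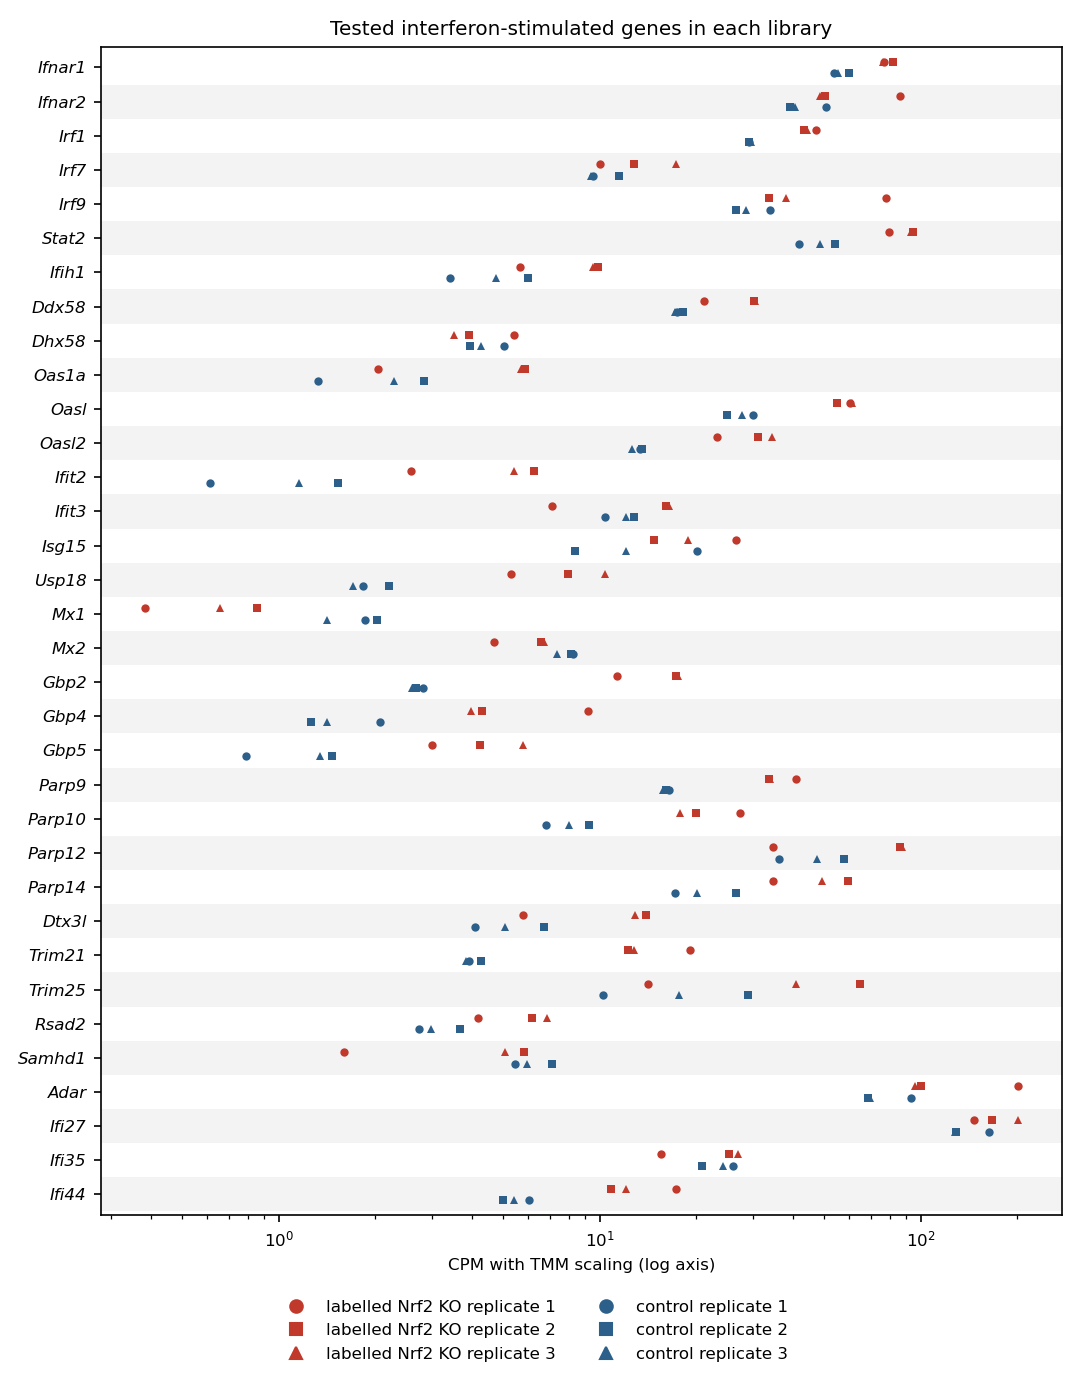
CPM with TMM scaling (log axis) of each tested member in each of the 6 libraries, red for the libraries labelled Nrf2 KO and blue for control, with a symbol for each replicate number. Gbp2, Parp9, Trim21 and Oasl show groups that are far apart, whereas for Trim25, Parp12 and Isg15 the replicate numbers differ as much as the groups do.

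How many members passed depended on the libraries used. With the replicate number as a block, 22 rose and 1 fell (10.4% and 7.92% of all tested genes). When replicate 1 labelled Nrf2 KO was left out, 23 rose and 1 fell (15.6% and 14.5% of all genes tested in that fit), and 29 and 1 when both replicate 1 libraries were (24% and 22.1%). Leaving out another library lowered the counts: 2 rose without control replicate 1 (1.4% of all genes, with 0.691% lower), 1 without control replicate 2 (1.37%, 0.659% lower), 1 without control replicate 3 (0.925%, 0.379% lower), 4 without Nrf2 KO replicate 2 (1.79%, 0.74% lower) and 4 without Nrf2 KO replicate 3 (1.82%, 0.739% lower), while 0 members fell in each. The scaling and the filter mattered less: 14 rose with RLE size factors (4.95% of all genes, 3.45% lower), 12 with upper-quartile scaling (4.31%, 4.08% lower), 12 with library size alone (4.42%, 3.66% lower) and 13 with a filter of 1 CPM in 3 libraries (5.22%, 3.8% lower). With no filter 11 of 38 tested members rose (2.85% of all genes, 1.98% lower), as did 11 of 34 with limma-voom (4.84%, 3.74% lower), and 0 members fell in these 6 fits. The calls lost in 1 or more of them were those of Irf1 (adjusted p up to 0.0725), Gbp4 (0.0617), Ifit2 (0.0518) and Parp14 (0.0575). Gbp2 passed whichever of the 6 libraries was left out. Oasl passed in 3 of these 6 fits (those lacking control replicate 1, Nrf2 KO replicate 1 and Nrf2 KO replicate 2), Parp9 and Trim21 in the 3 without a library labelled Nrf2 KO, and Parp10 in 2 (those lacking Nrf2 KO replicates 1 and 3). The other 9 passed only in the fit without Nrf2 KO replicate 1, with their largest adjusted p between 0.108 (Usp18) and 0.228 (Parp14). The direction of the 14 was the same in the main fit and all 15 alternatives.

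Neither interferon receptor chain passed the test. Ifnar1 was at 76.8, 82.0 and 76.1 CPM in libraries labelled Nrf2 KO, against 53.7, 59.7 and 55.4 CPM in the controls, without overlap (log2 fold change 0.48, SE 0.13, adjusted p = 0.0743, and 0.0386 with the replicate block). Ifnar2 was at 86.5, 50.5 and 48.6 CPM in libraries labelled Nrf2 KO, against 50.7, 39.2 and 40.5 CPM in the controls. Replicate 1 was the high library of each group for Ifnar2, and the groups overlapped (0.51, SE 0.27, adjusted p = 0.306).

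Among the transcription factors, Stat2 and Irf1 rose. Stat2, the STAT that is particular to type I and III interferon signalling, was at 79.4, 94.6 and 92.96 CPM in libraries labelled Nrf2 KO, against 41.7, 54.3 and 48.5 CPM in the controls (log2 fold change 0.89, SE 0.16, adjusted p = 0.0244). Irf1, an activator of interferon gamma response genes, was at 47.1, 43.3 and 44.4 CPM in libraries labelled Nrf2 KO, against 29.3, 29.1 and 29.7 CPM in the controls (0.61, SE 0.13, adjusted p = 0.0369). Both groups were tight for Irf1, with SDs of 1.95 and 0.294 CPM. Irf9, the DNA-binding partner in ISGF3, was at 77.8, 33.7 and 38.1 CPM in libraries labelled Nrf2 KO, against 34.0, 26.5 and 28.6 CPM in the controls, a difference carried largely by replicate 1 (0.75, SE 0.34, adjusted p = 0.249). Irf7, the factor that amplifies type I interferon production, was at 9.99, 12.8 and 17.3 CPM in libraries labelled Nrf2 KO, against 9.54, 11.5 and 9.41 CPM in the controls, and overlapped (0.40, SE 0.25, adjusted p = 0.387).

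The cytosolic nucleic acid sensors did not pass the test. Ddx58, which encodes RIG-I, was at 21.1, 30.2 and 30.5 CPM in libraries labelled Nrf2 KO, against 17.4, 18.1 and 17.2 CPM in the controls (log2 fold change 0.64, SE 0.19, adjusted p = 0.0949, and 0.00375 without Nrf2 KO replicate 1). Ifih1, which encodes the long double-stranded RNA sensor MDA5, was at 5.65, 9.90 and 9.50 CPM in libraries labelled Nrf2 KO, against 3.42, 5.96 and 4.77 CPM in the controls (0.82, SE 0.32, adjusted p = 0.178, and 0.0309 with the block). In both genes replicate 1 was the lowest library labelled Nrf2 KO. Dhx58, which encodes LGP2, the RIG-I-like receptor without a signalling domain, averaged 4.29 ± 1.00 CPM in libraries labelled Nrf2 KO and 4.41 ± 0.558 CPM in the controls (SD, n = 3 each). Zbp1, a sensor of Z-form nucleic acid, had 0 to 6 counts a library and was not tested.

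Oligoadenylate synthetases make the messenger that switches on RNase L, and OAS-like proteins are their relatives. Oasl was at 60.4, 54.7 and 61.0 CPM in libraries labelled Nrf2 KO, against 29.9, 24.9 and 27.8 CPM in the controls (log2 fold change 1.09, SE 0.14, adjusted p = 0.00884). Oasl2 was at 23.3, 31.2 and 34.5 CPM in libraries labelled Nrf2 KO, against 13.3, 13.6 and 12.6 CPM in the controls (1.17, SE 0.19, adjusted p = 0.0173). These rises were of like size and without overlap. Oas1a was at 2.04, 5.84 and 5.69 CPM in libraries labelled Nrf2 KO, against 1.33, 2.83 and 2.29 CPM in the controls, with replicate 1 the low library of each group (1.07, SE 0.49, adjusted p = 0.243, and 0.0386 with the block). Oas2 had 0, 2 and 2 counts in libraries labelled Nrf2 KO and 5, 8 and 6 in the controls, and Oas3 had 0 counts in all 6 libraries, so neither was tested. A count of 0 allows up to 3 counts, or 0.0611 to 0.0958 CPM in libraries labelled Nrf2 KO and 0.0675 to 0.0773 CPM in the controls, for counting error only.

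The IFIT proteins bind viral RNA or translation factors. Ifit2 was at 2.59, 6.25 and 5.40 CPM in libraries labelled Nrf2 KO, against 0.612, 1.53 and 1.16 CPM in the controls (log2 fold change 2.10, SE 0.48, adjusted p = 0.0497, and 0.00631 with the block). Its call lay at the threshold and was lost with limma-voom (adjusted p = 0.0518). Its neighbour in function, Ifit3, was at 7.09, 16.0 and 16.4 CPM in libraries labelled Nrf2 KO, against 10.4, 12.8 and 12.1 CPM in the controls. Replicate 1 labelled Nrf2 KO thus lay below every control and the other 2 above (0.17, SE 0.34, adjusted p = 0.822, and 0.0493 without Nrf2 KO replicate 1). Ifit1 had 4 to 6 counts in libraries labelled Nrf2 KO and 1 to 5 in the controls and was not tested.

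ISG15 is a ubiquitin-like modifier, and USP18 removes it from proteins and also damps signalling at IFNAR2. Usp18 rose, with 5.30, 7.94 and 10.4 CPM in libraries labelled Nrf2 KO, against 1.84, 2.20 and 1.70 CPM in the controls (log2 fold change 2.04, SE 0.31, adjusted p = 0.0146). Isg15 itself was at 26.5, 14.8 and 18.8 CPM in libraries labelled Nrf2 KO, against 20.1, 8.39 and 12.1 CPM in the controls (0.57, SE 0.38, adjusted p = 0.422, and 0.0444 with the block). Both groups of Isg15 spread by an SD near 6 (5.96 and 5.97 CPM), with replicate 1 highest in each. Within every replicate number, Isg15 was higher in the library labelled Nrf2 KO.

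Interferon-inducible GTPases held both the largest rise and the 2 tested members that lay below every control. Guanylate-binding proteins coat pathogen-containing vacuoles and bacteria. Gbp2 was at 11.3, 17.3 and 17.6 CPM in libraries labelled Nrf2 KO, against 2.81, 2.68 and 2.60 CPM in the controls (log2 fold change 2.51, SE 0.24, adjusted p = 0.00353). Gbp4 was at 9.19, 4.30 and 3.99 CPM in libraries labelled Nrf2 KO, against 2.07, 1.26 and 1.42 CPM in the controls (1.88, SE 0.42, adjusted p = 0.0480). Gbp5 was at 3.00, 4.24 and 5.76 CPM in libraries labelled Nrf2 KO, against 0.791, 1.46 and 1.341 CPM in the controls (1.85, SE 0.37, adjusted p = 0.0333). No library labelled Nrf2 KO overlapped a control in these 3 genes, and replicate 1 was the highest for Gbp4 and the lowest for Gbp2 and Gbp5. The Mx proteins are dynamin-like GTPases that block virus replication. Mx1 was at 0.383, 0.855 and 0.656 CPM in libraries labelled Nrf2 KO, against 1.86, 2.02 and 1.42 CPM in the controls (-1.47, SE 0.37, adjusted p = 0.0629, and 0.0393 with the block). Mx2 was at 4.69, 6.58 and 6.71 CPM in libraries labelled Nrf2 KO, against 8.27, 8.16 and 7.37 CPM in the controls (-0.40, SE 0.22, adjusted p = 0.313). Both Mx genes were thus below the controls in every library, at low counts for Mx1 (12, 42 and 27 against 73, 90 and 55).

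**Figure D2:**
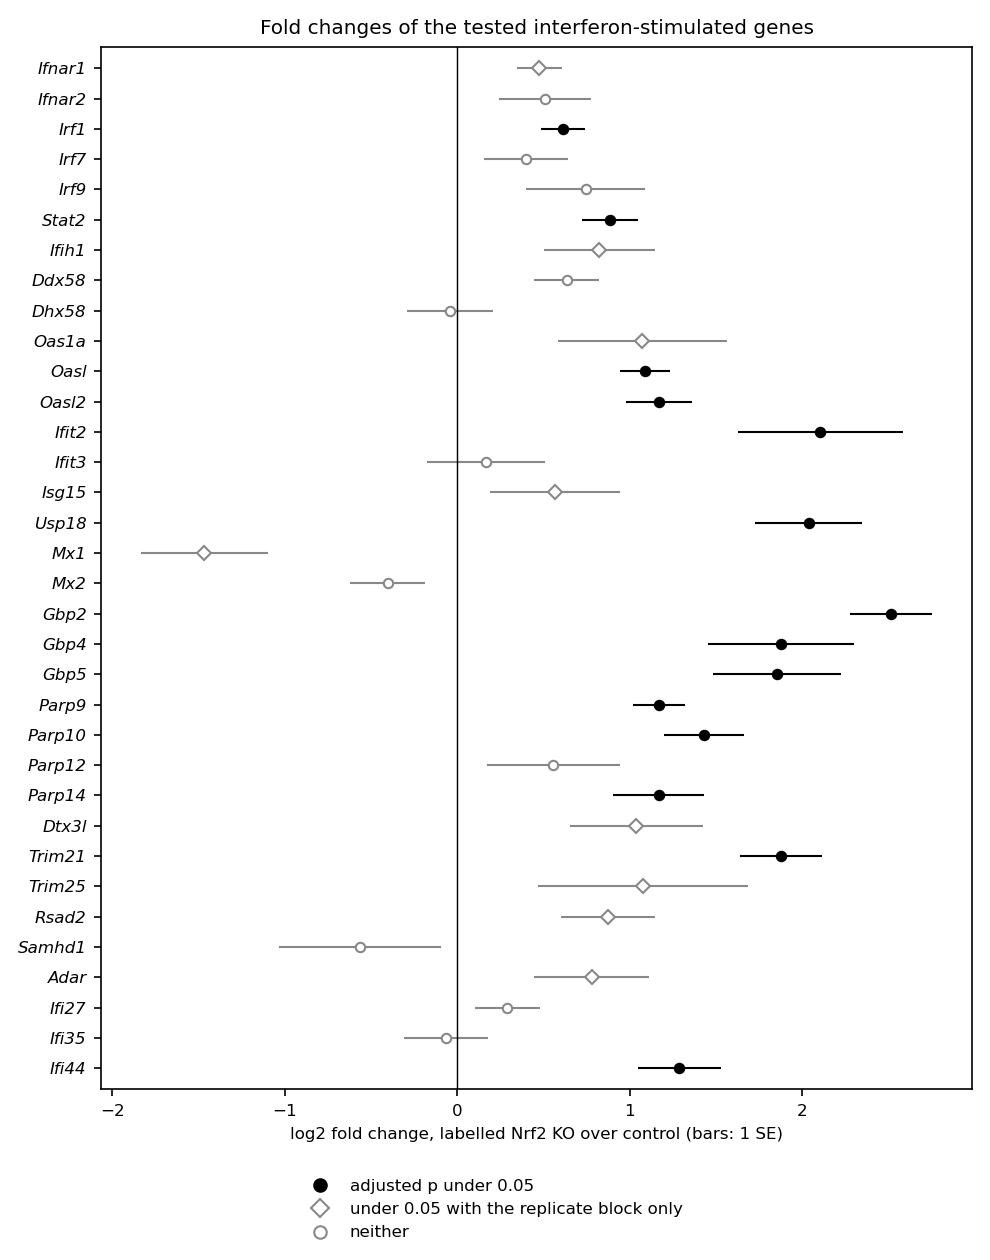
Log2 fold change of each tested member, labelled Nrf2 KO over control, with bars of 1 SE from the edgeR fit, ordered by role from receptors at the top. Filled points passed an adjusted p of 0.05 (14 members), diamonds passed only with the replicate block (9 members), and open circles passed neither.

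PARP9 and DTX3L form a complex of an ADP-ribosyltransferase-like protein and a ubiquitin ligase that promotes interferon signalling, and PARP10, PARP12 and PARP14 transfer single ADP-ribose units. Parp9 was at 40.9, 33.8 and 34.0 CPM in libraries labelled Nrf2 KO, against 16.5, 16.0 and 15.8 CPM in the controls (log2 fold change 1.17, SE 0.15, adjusted p = 0.00813). Its partner Dtx3l was at 5.78, 13.9 and 12.9 CPM in libraries labelled Nrf2 KO, against 4.08, 6.72 and 5.08 CPM in the controls (1.04, SE 0.39, adjusted p = 0.163, and 0.0400 with the block). The fold changes of the partners were close, but replicate 1 labelled Nrf2 KO was the highest library for Parp9 and lay among the controls for Dtx3l. Parp10 was at 27.4, 19.9 and 17.8 CPM in libraries labelled Nrf2 KO, against 6.81, 9.29 and 8.04 CPM in the controls (1.43, SE 0.23, adjusted p = 0.0178). Parp14 was at 34.6, 59.2 and 49.3 CPM in libraries labelled Nrf2 KO, against 17.1, 26.5 and 20.1 CPM in the controls (1.17, SE 0.26, adjusted p = 0.0492, and 0.00839 with the block), a call lost with limma-voom (0.0506). Parp12 was at 34.6, 86.0 and 87.7 CPM in libraries labelled Nrf2 KO, against 36.1, 57.8 and 47.7 CPM in the controls (0.56, SE 0.38, adjusted p = 0.440, and 0.0185 without Nrf2 KO replicate 1). The groups did not overlap for Parp9, Parp10 and Parp14.

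The TRIM ligases differed in how their libraries spread. Trim21, a cytosolic antibody receptor and ubiquitin ligase, rose to 19.2, 12.3 and 12.8 CPM in libraries labelled Nrf2 KO, against 3.90, 4.27 and 3.84 CPM in the controls (log2 fold change 1.88, SE 0.24, adjusted p = 0.00813). Trim25, the ligase known for its part in RIG-I signalling, was at 14.1, 64.7 and 41.0 CPM in libraries labelled Nrf2 KO, against 10.3, 28.9 and 17.6 CPM in the controls (1.08, SE 0.61, adjusted p = 0.343, and 0.0340 with the block). Its order of libraries was alike in both groups, with replicate 1 lowest and replicate 2 highest.

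Of the remaining effectors and interferon-induced genes, Ifi44 rose, with 17.3, 10.8 and 12.1 CPM in libraries labelled Nrf2 KO, against 6.02, 5.02 and 5.41 CPM in the controls (log2 fold change 1.29, SE 0.24, adjusted p = 0.0260). Adar, the adenosine deaminase that edits double-stranded RNA and so limits MDA5 sensing, was at 201, 100.1 and 95.7 CPM in libraries labelled Nrf2 KO, against 93.2, 68.6 and 69.4 CPM in the controls (0.78, SE 0.33, adjusted p = 0.213, and 0.0478 with the block). Its groups did not overlap, and replicate 1 was the high library of each. Rsad2, which encodes viperin, a radical SAM enzyme that makes a chain-terminating nucleotide, was at 4.18, 6.17 and 6.85 CPM in libraries labelled Nrf2 KO, against 2.73, 3.67 and 2.99 CPM in the controls (0.87, SE 0.27, adjusted p = 0.105, and 0.0453 with the block). Samhd1, which depletes dNTPs, was at 1.60, 5.82 and 5.06 CPM in libraries labelled Nrf2 KO, against 5.46, 7.11 and 5.93 CPM in the controls (-0.56, SE 0.47, adjusted p = 0.532). Replicate 1 labelled Nrf2 KO was far below the other libraries for Samhd1. Bst2, which encodes the virion tether tetherin, had 4, 7 and 6 counts in libraries labelled Nrf2 KO and 0, 0 and 2 in the controls and was not tested. Ifi27 was at 147, 166 and 201 CPM in libraries labelled Nrf2 KO, against 164, 129 and 128 CPM in the controls (0.29, SE 0.19, adjusted p = 0.414). Ifi35 averaged 22.6 ± 6.17 CPM in libraries labelled Nrf2 KO and 23.7 ± 2.59 CPM in the controls (SD, n = 3 each, adjusted p = 0.906). Per length, in the authors' deposited table of group FPKM, Ifi27 was the most abundant member (174 FPKM labelled Nrf2 KO, 144 FPKM control), followed in the group labelled Nrf2 KO by Oasl (24.2, against 11.5 FPKM in the control) and Isg15 (23.0, against 14.5 FPKM).

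Set against the control library of the same replicate number, 26 of the 34 tested members (76.5%) were higher in all 3 pairs, against 30.3% of all tested genes, and 3 (Mx1, Mx2 and Samhd1, 8.82%) were lower in all 3, against 30.5% of all tested genes. Replicate 1 often gave a value apart from the other 2 pairs. Ifit3, Parp12, Ifi27 and Ifi35 were below their control in pair 1 and above it in pairs 2 and 3, whereas Irf9, Adar, Parp10 and Trim21 had their largest difference in pair 1. The part of the split between replicate 1 and the rest in these values was not tested, because the labels do not say what the numbers mark. The summed level of the 39 members was 1129, 1136 and 1152 CPM in libraries labelled Nrf2 KO, against 730, 714 and 677 CPM in the controls, so that the sum, to which Ifi27 and Adar add most, hardly differed between replicates.

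**Figure D3:**
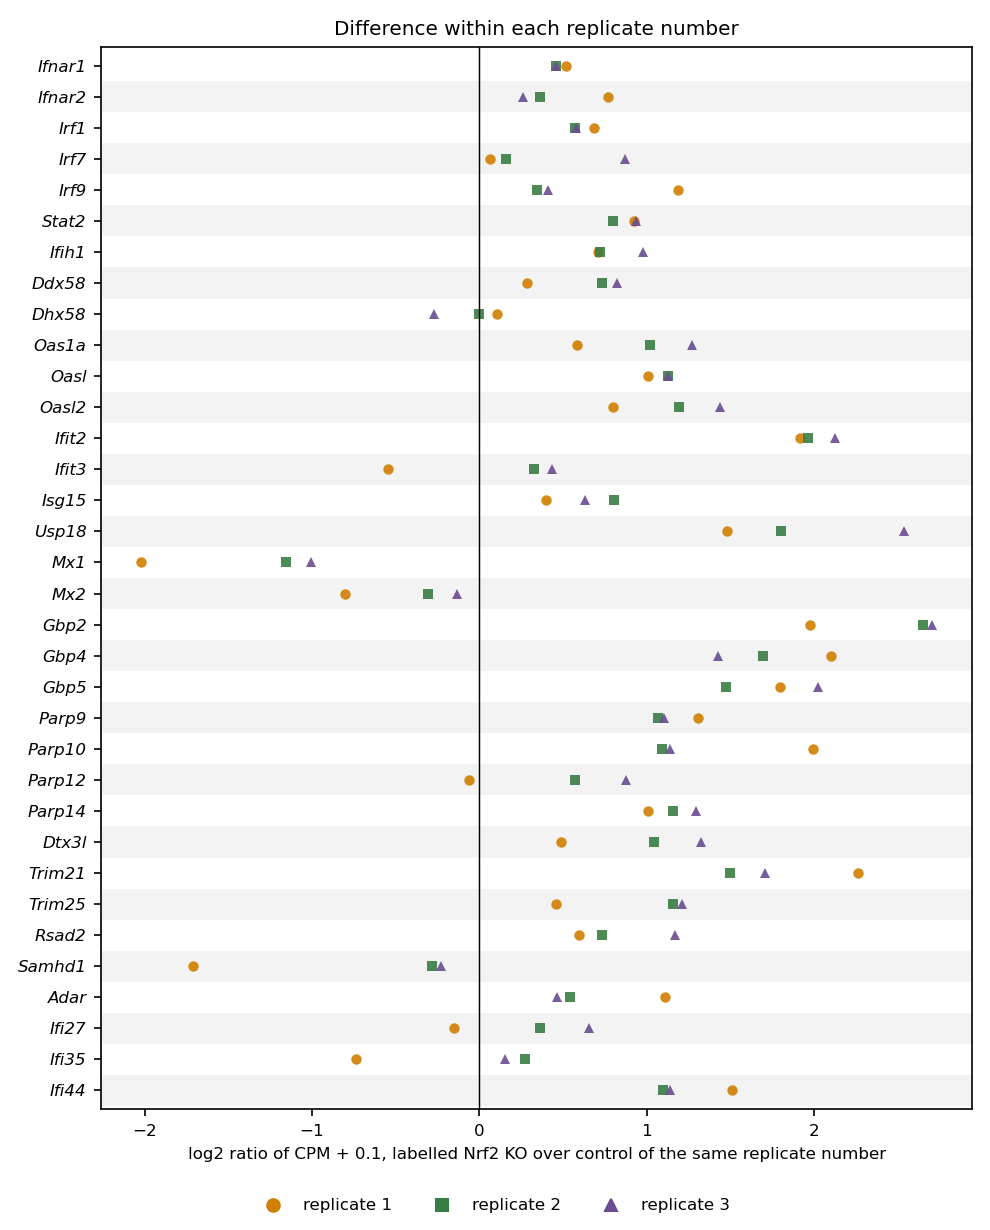
Log2 ratio of CPM + 0.1 between the library labelled Nrf2 KO and the control of the same replicate number, for each tested member, with a symbol for each number. Most members lie to the right of 0 in all 3 pairs (26 of 34), Mx1, Mx2 and Samhd1 lie to the left in all 3, and replicate 1 lies apart for members such as Irf9, Adar, Samhd1 and Ifi35.

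Ligands of the pathway were nearly silent. Of 10 interferon genes looked for, 5 had 0 counts in all 6 libraries, Ifng among them, and Ifnb1 had 0, 4 and 0 counts in libraries labelled Nrf2 KO and 0 in each control. Only Ifne, an interferon known from epithelia of the reproductive tract, had enough counts to test, at 5.08, 1.57 and 2.19 CPM in libraries labelled Nrf2 KO, against 0.817, 0.877 and 0.490 CPM in the controls (log2 fold change 2.00, SE 0.53, adjusted p = 0.0731, and 0.0413 with the block). Interferon protein in the medium was not measured. The kinases Jak1 and Tyk2 did not pass, with means of 192 ± 31.6 and 32.1 ± 15.1 CPM in libraries labelled Nrf2 KO and 156 ± 30.2 and 30.5 ± 7.38 CPM in the controls (SD, n = 3 each, adjusted p = 0.453 and 0.933).

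Genes of the interferon pathway outside the 40 were counted in the same fits. Of 90 such genes 87 were in the table and 70 were tested, and 9 rose and 1 fell, beside 4.83% of all tested genes called higher and 3.45% lower. With the block 18 rose and 4 fell (10.4% and 7.92% of all genes), and 24 and 5 did when Nrf2 KO replicate 1 was left out (15.6% and 14.5%). When any other library was left out, 1 to 3 rose and 0 fell (0.925% to 1.82% and 0.379% to 0.74%). Nmi, an interferon-inducible partner of STATs and of IFI35, was at 6.13, 11.0 and 10.1 CPM in libraries labelled Nrf2 KO, against 0.255, 0.382 and 0.413 CPM in the controls, the largest fold change of the 70 (4.68, SE 0.36, adjusted p = 0.00255). Its partner Ifi35, as given above, did not pass the test. Tlr3, the endosomal sensor of double-stranded RNA, was at 1.02, 1.20 and 1.17 CPM in libraries labelled Nrf2 KO, against 0.153, 0.0450 and 0.0773 CPM in the controls (3.60, SE 0.45, adjusted p = 0.00799). Nmi passed whichever library was left out, and Tlr3 in 5 of these 6 fits, losing its call without control replicate 3. The others that rose were Slfn2 (log2 fold change 1.16), Trim5 (1.32), Rtp4 (1.58), Fam46a (0.73), Irf5 (1.56), Igtp (0.90) and Stat3 (0.86), of which Slfn2 and Trim5 passed in 2 fits with a library left out and the rest only in the fit without Nrf2 KO replicate 1.

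The 1 gene of these that fell was Ifitm3, an interferon-induced membrane protein that blocks virus entry. It was at 44.3, 46.1 and 52.6 CPM in libraries labelled Nrf2 KO, against 121, 74.5 and 87.5 CPM in the controls (log2 fold change -0.99, SE 0.21, adjusted p = 0.0432), and passed in 1 of the 6 fits with a library left out, that without Nrf2 KO replicate 1. Ifitm1 was at 0.351, 0.143 and 0.194 CPM in libraries labelled Nrf2 KO, against 1.71, 0.742 and 0.722 CPM in the controls (-2.23, SE 0.54, adjusted p = 0.0594, and 0.0149 with the block). Ifitm2, of the same family, was at 56.2, 93.9 and 96.0 CPM in libraries labelled Nrf2 KO, against 190.3, 141 and 162 CPM in the controls (-1.002, SE 0.25, adjusted p = 0.0656, and 0.0120 without Nrf2 KO replicate 1). All 3 Ifitm genes lay below every control, as did 2 other tested genes of the 70, Nlrc5 and Ccl5. Of all tested genes, 17.1% lay below every control and 17.1% above. Beside these shares, a smaller share of the 70 lay below every control and a larger share above. Nlrc5, a regulator of MHC class I genes, was at 0.415, 0.143 and 0.535 CPM in libraries labelled Nrf2 KO, against 1.15, 1.66 and 2.09 CPM in the controls (-2.18, SE 0.53, adjusted p = 0.0581, and 0.0334 with the block). The chemokine Ccl5 was at 0.160, 0.265 and 0.316 CPM in libraries labelled Nrf2 KO, against 0.612, 0.607 and 0.877 CPM in the controls (-1.47, SE 0.37, adjusted p = 0.0645, and 0.0391 with the block), at 5 to 34 counts a library. Eif2ak2, the RNA-activated kinase PKR, was at 80.9, 138 and 127 CPM in libraries labelled Nrf2 KO, against 59.3, 84.2 and 72.9 CPM in the controls (0.67, SE 0.25, adjusted p = 0.160, and 0.0292 with the block). With the block Uba7, the activating enzyme of ISG15 (1.23, SE 0.28, adjusted p = 0.0512, and 0.0130 with the block), and the chemokine Cxcl10 (0.73, SE 0.22, 0.0955 and 0.0183) passed as higher as well, and so did Jak2 and Ifnlr1 (0.0212 and 0.0244 with the block).

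**Figure D4:**
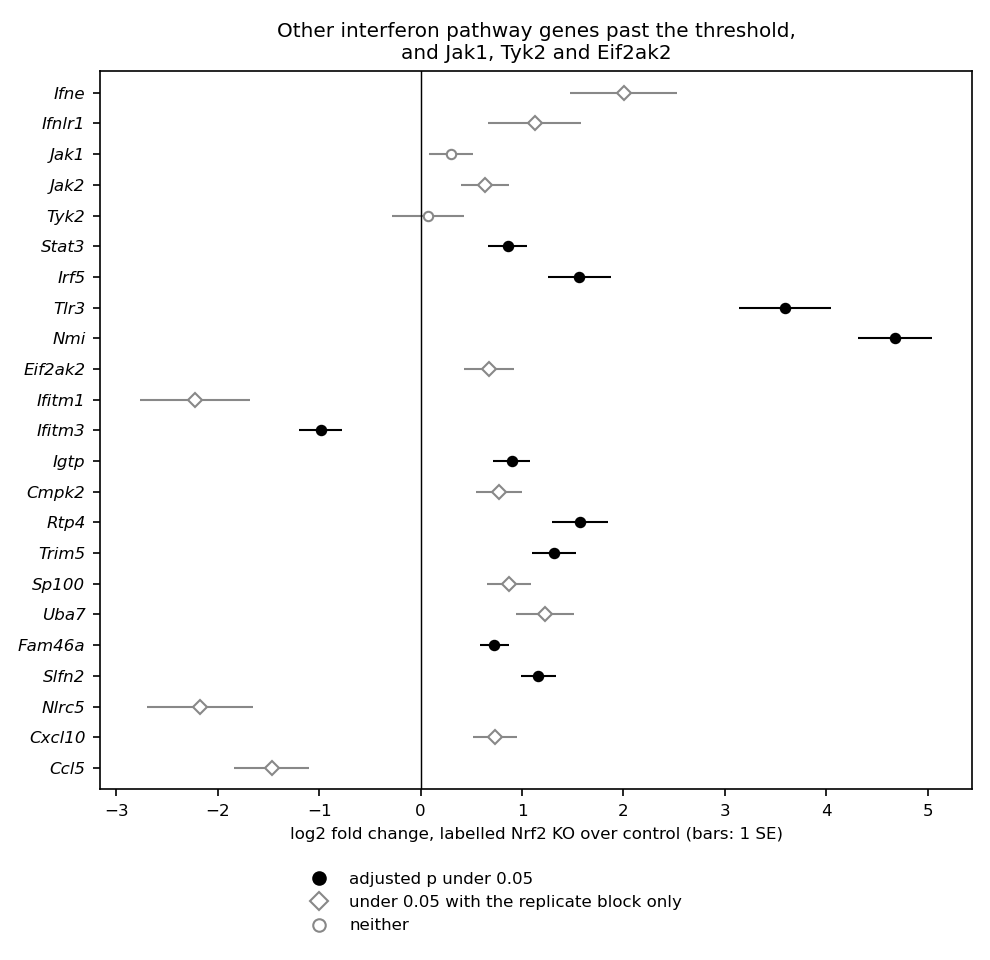
Log2 fold change, labelled Nrf2 KO over control, with bars of 1 SE, of other interferon pathway genes that passed an adjusted p of 0.05 (filled) or passed only with the replicate block (diamonds), with Jak1 and Tyk2 as open circles. Nmi at 4.68 and Tlr3 at 3.60 lie farthest to the right, and Ifitm1, Nlrc5, Ccl5 and Ifitm3 lie to the left of 0.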

How the data were processed

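The data are counts from 3 libraries labelled Nrf2 KO and 3 control libraries. The submitters' processing notes name fastp, FastQC, HISAT2, DESeq2 1.34.0 and the build hg18. For the annotation, the counter and its strand setting, nothing is given in the sources used here. The authors deposited raw counts per gene symbol and, in a second table, FPKM as 1 value per group, with no error. The submitters' build is human, the labelled organism mouse and the symbols rat, so reads may be lost unevenly between genes, and overlapping or antisense genes cannot be separated.

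Counts were tested with edgeR 4.0.16 (R 4.3.3): filterByExpr by group (minimum count 10, minimum total 15), TMM scaling, and a robust quasi-likelihood fit with group as its only term, two-sided, Benjamini-Hochberg over 14618 genes, threshold 0.05. SE is the fold change over the root of the F statistic. Alternatives were 3 other scalings, 2 other filters, DESeq2 1.42.0, limma 3.58.1 (voom), the replicate block, each library left out and both replicate 1 libraries left out. The edgeR, replicate block, DESeq2 and limma-voom fits were also run on simulated counts. Those counts had the same dispersion for every gene and no replicate effect. They therefore do not show how the fits behave under the split of replicate 1 from the rest.

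The main fit did not use the replicate numbers. They were taken as pairs only for the replicate block and for the ratios within a replicate number. This rests on evidence from the counts and not from the labels. The deviations of same-numbered libraries from their group means correlated across genes at 0.754, 0.696 and 0.310, all above the limit of 0.1. Nrf2 KO 3 with control 2 (0.539) and Nrf2 KO 2 with control 3 (0.278) were above it too. The remaining correlations between different numbers ran from -0.749 to -0.318. The counts thus set replicate 1 apart in both groups, but do not clearly tell pair 2 from pair 3. No pair within a group differed by as little as sampling noise (smallest chi-square per degree of freedom 14.3). Nothing in the labels ties a replicate to a culture of its own, so p-values reflect only how far these samples scatter, possibly for technical reasons.

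Members were found by exact symbol. The members and lists were chosen with earlier results of these data known. Named were members that passed the test, with the block or without Nrf2 KO replicate 1, the most abundant member of each role, untested members, up to 8 other pathway genes with the smallest p, up to 6 more that passed with the block, and Ifnb1, Ifng, Jak1, Tyk2 and Eif2ak2, apart from genes left unreported here. Ifitm2, Ifitm3, Stat3, Nlrc5, Ccl5 and Ifne fall outside this rule and were picked with their values in view. For the other pathway list, 3 genes were matched under an older symbol. Columns of other samples numbered 0.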

Additional observations from a re-analysis of the deposited data

How the results depend on the processing

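Scaling and filters moved the 14 members called higher to between 11 and 14, and limma-voom gave 11. DESeq2 called 17 members higher and 1 lower, 16 and 5 of the other pathway genes, and 1598 and 1318 of all genes, against 706 and 505 in edgeR. With the replicate block the counts were 22 and 1, 18 and 4, and 1520 and 1158. Without both replicate 1 libraries they were 29 and 1, 30 and 6, and 3540 and 3253. Over the fits with 1 library left out the members ranged from 1 to 23 higher and 0 to 1 lower, the other pathway genes from 1 to 24 and 0 to 5, and all genes from 139 to 2323 and 57 to 2162. The highest count of each came without Nrf2 KO replicate 1. The lowest came without control replicate 3, a minimum shared by control replicate 2 for members higher, and for members and pathway genes lower by every library other than Nrf2 KO replicate 1. Upper-quartile scaling and library size alone each gave 2 lower pathway genes, against 1. The median log2 fold change of the tested members was 0.79 to 1.00 over all alternatives. Of the 34 tested members 31 kept their sign throughout. Over the fits lacking a single library, Dhx58 ranged from -0.25 to 0.0807, above 0 without control replicate 1 (0.06), Nrf2 KO replicate 2 (0.02) and Nrf2 KO replicate 3 (0.0807). Ifit3 ranged from -0.0199, without Nrf2 KO replicate 3, to 0.46. Ifi35 ranged from -0.21 to 0.14, above 0 without control replicate 1 (0.0022) and without Nrf2 KO replicate 1 (0.14), and was 0.22 without both replicate 1 libraries. None of these 3 passed the test in edgeR with all libraries. Ifit3 passed as higher in edgeR without Nrf2 KO replicate 1 (adjusted p = 0.0493) and without both replicate 1 libraries (0.0201). Fewer libraries leave fewer degrees of freedom; the cause of the rise without replicate 1 was not tested. Counts were low for Mx1 (12 to 90 a library) and the 5 untested members (0 to 8); what depth adds to their error was not tested.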
